A study of Mus musculus with 6 samples.

Results

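The adipokine genes described here are 10 genes of secreted fat hormones and their receptors, chosen by name: Lep, Lepr, Adipoq, Adipor1, Adipor2, Retn, Cfd, Rarres2, Nampt and Itln1. All 10 were found by symbol among the 22134 genes of the deposited table. The samples were 3 libraries of creeping fat, the mesenteric fat that wraps injured bowel, from mice whose colon had been cauterised repeatedly, and 3 libraries of mesenteric fat from uninjured mice, the controls. Both groups were wild-type. Strain, age, sex, the number of injuries and the time after them are not given in the sources used here, and nothing says that the libraries of a group came from separate mice, so the p-values refer to the spread among these libraries alone, which may be partly technical. Values are FPKM, fragments scaled by gene length and by library total. Levels of different genes can thus be set side by side, as far as the gene lengths used hold. Values by library are given in the order of libraries 1, 2 and 3 of a group.

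Leptin is the hormone by which fat reports its stores to the brain. It acts through the cytokine receptor Lepr, which signals by the kinase JAK2 and the transcription factor STAT3. Adiponectin, a collagen-like hormone of adipocytes, acts through the membrane receptors AdipoR1 and AdipoR2 and is also bound by T-cadherin. Resistin (Retn), adipsin (Cfd, the protease that starts the alternative complement pathway), chemerin (Rarres2, a chemoattractant that proteases activate), Nampt (the rate-limiting enzyme of NAD salvage, also found outside cells) and omentin (Itln1, a lectin) are further products of fat, made by adipocytes or by the cells around them. In mice, resistin and adipsin are made mainly by adipocytes, whereas Nampt is made by most cells.

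Lep, Adipoq, Retn and Adipor2 were lower in creeping fat, and no tested gene of the 10 was higher. Leptin transcripts showed the largest difference, at 2.46 ± 1.09 FPKM in creeping fat (SD, n = 3) against 124 ± 90.6 in controls. The difference was tested with limma on log2(FPKM + 1) over the 12812 genes that reached 1 FPKM in at least 3 libraries, and a gene was called at a Benjamini-Hochberg adjusted p under 0.05. Of the 10 genes, 9 were tested, and each of these was at or above 1 FPKM in all 6 libraries. Itln1 was under the filter. Of the 9 tested, 4 were called lower, 0 were called higher, and 5 were not called, against 6.81% of all genes tested called lower and 9.35% higher. At an unadjusted p under 0.05, 7 of the 9 were lower, against 13.7% of all genes tested. In 7 of the 9 the libraries of the groups did not overlap, with creeping fat the lower, against 16.9% of all genes tested, and in 0 with creeping fat the higher, against 20.2%. The median log2 difference of the 9 was -1.64, and that of all tested genes 0.02. A log2 difference is creeping fat minus control throughout.

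**Figure D1:**
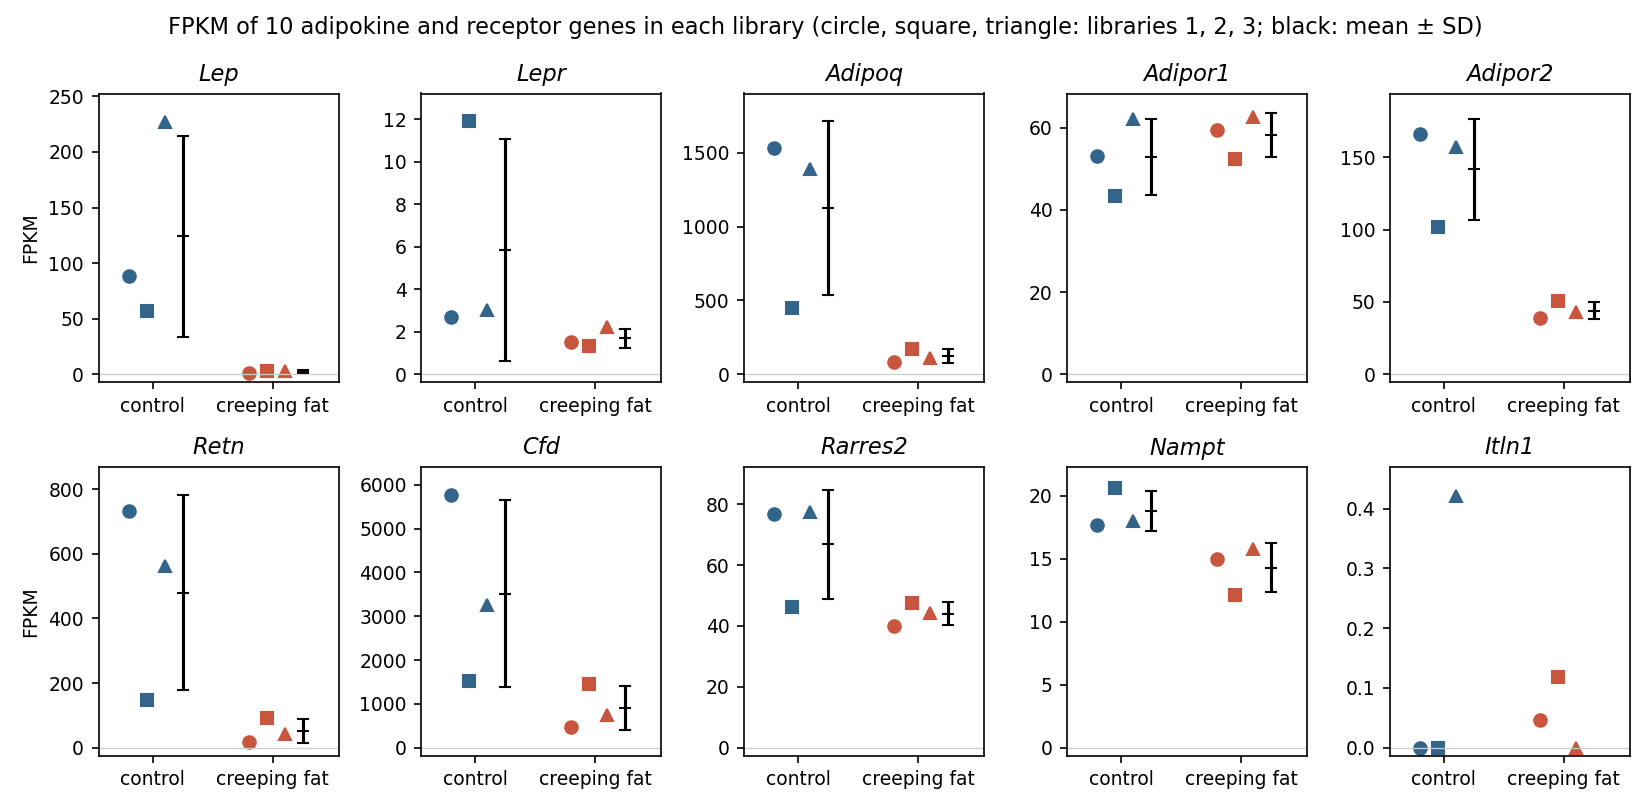
FPKM of each of the 10 genes (y axis, linear, a separate scale for each gene) in the 3 control and 3 creeping fat libraries, with black bars for the mean and SD; Itln1, listed at 0 in some libraries, has no bar. The groups do not overlap in Lep, Lepr, Adipoq, Adipor2, Retn, Cfd and Nampt, and they overlap in Adipor1 and Rarres2. Control 2 is the lowest control in Lep, Adipoq, Adipor1, Adipor2, Retn, Cfd and Rarres2.

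Reads recovered from the FPKM steps came to 30935272 to 43073133 a library. The tissue was checked against its markers. Each of 12 adipocyte genes, among them the lipid droplet genes Plin1 and Cidec, was above 0 in every library, and all 12 were called lower in creeping fat. Their summed level was 739, 1596 and 1092 FPKM in creeping fat and 10003, 3953 and 10442 FPKM in controls. Control 2 thus had the least of these transcripts among the controls, and creeping fat 2 the most in its group. In bulk tissue, fewer adipocytes and less RNA per adipocyte cannot be told apart. Other markers moved with the groups as well. Of 8 fibroblast and progenitor genes 7 were called higher, with 7793 to 10177 FPKM summed in creeping fat against 797 to 1086 in controls. Of 8 macrophage genes 6 were called higher (2555 to 4389 against 590 to 1073 FPKM). Transcripts of 8 seminal vesicle genes, all called higher, summed to 15958 to 30922 FPKM in creeping fat and to 0.171 to 53.5 in controls. Those of 13 exocrine pancreas genes, of which 10 were called lower, summed to 22.3, 4761 and 13.1 FPKM in creeping fat and to 14721 to 36786 in controls. No gene of these lists was at 0 in all libraries of a group. The part of these cells in the adipokine differences was not tested. After the listed gland and pancreas genes alone were removed and the libraries rescaled, the same 4 adipokine genes were called, with Lep at -5.01. Other transcripts of these organs stayed in, so this rescaling does not take out their cells.

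The hormones came first. Lep, on chromosome 6 from 29060221 to 29073876 (RefSeq, GRCm38.p6, as for all positions here), stood at 1.20, 3.12 and 3.06 FPKM in creeping fat and at 88.4, 57.2 and 227 FPKM in controls. These values came from 141, 355 and 327 reads against 11191, 5806 and 32158 reads. The groups were far apart, and the mean of creeping fat was 1.98% of that of controls, 50.6-fold lower. By rank among the 22134 genes of the table, Lep was 514th, 719th and 196th in controls and 12291st, 9919th and 9966th in creeping fat. Lep fell by 4.99 ± 0.51 on the log2 scale (limma's SE; adjusted p = 0.00245), and it was called with each library left out in turn, at -5.43 to -4.44.

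Adipoq, which encodes adiponectin, lies on chromosome 16 from 23146536 to 23157968. It stood at 80.1, 174 and 112 FPKM in creeping fat and at 1536, 451 and 1388 FPKM in controls. Control 2 was the control nearest to creeping fat, at 0.308 of the mean of the other controls, yet still above every creeping fat library. Adipoq fell by 3.07 ± 0.52 (adjusted p = 0.0105 in limma). The mean of creeping fat was 10.9% of that of controls. Unlike Lep, Adipoq remained an abundant transcript of creeping fat, between rank 248 and rank 547 there, against rank 20 to 81 in controls.

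Retn, which encodes resistin, lies on chromosome 8 from 3655770 to 3659818. It stood at 19.0, 92.5 and 41.5 FPKM in creeping fat and at 732, 147 and 562 FPKM in controls. The spread was wide in both groups. Creeping fat 2 was 3.06 times the mean of creeping fat 1 and 3, and control 2 was 0.227 of the mean of control 1 and 3, so these libraries approached each other without overlap. Retn fell by 3.20 ± 0.75 (adjusted p = 0.0304 in limma). The call was lost without creeping fat 1 (-2.64, adjusted p = 0.103), creeping fat 3 (-3.19, 0.0979), control 1 (-2.75, 0.0929) or control 3 (-2.94, 0.115), and when genes of any level were tested (-3.20, 0.0601).

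Cfd, which encodes adipsin, lies on chromosome 10 from 79890853 to 79892655 and was the most abundant of the 10 genes in every library. It stood at 484, 1455 and 748 FPKM in creeping fat and at 5772, 1523 and 3253 FPKM in controls. It ranked 5th, 23rd and 8th of all genes in controls and 77th, 21st and 52nd in creeping fat. Creeping fat 2 and control 2 differed little, and the other libraries were far apart. The log2 difference of -1.92 ± 0.58 did not pass (adjusted p = 0.0697 in limma; 95% interval -3.30 to -0.54). Without control 2 it was -2.42 and was called (adjusted p = 0.00916), and without creeping fat 2 it was -2.34 (adjusted p = 0.0651).

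Rarres2, which encodes chemerin, lies on chromosome 6 from 48569696 to 48572845. It stood at 40.0, 47.6 and 44.4 FPKM in creeping fat and at 76.8, 46.1 and 77.5 FPKM in controls. Control 2 lay within the range of creeping fat, and the other controls above it. The log2 difference of -0.56 ± 0.23 did not pass (adjusted p = 0.154 in limma; 95% interval -1.10 to -0.01). Without control 2 it was -0.80 and was called (adjusted p = 0.0039). The protein-coding gene Lrrc61 overlaps Rarres2 on the opposite strand, and whether the authors counted by strand is not given in the sources used here. The reads behind Rarres2 imply a gene length of about 894 bases, against 2656 bases of GENCODE exons. Its level beside other genes thus depends on the gene length used.

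Nampt, on chromosome 12 from 32820335 to 32853369, differed the least of the hormones tested. It stood at 15.0, 12.1 and 15.8 FPKM in creeping fat and at 17.7, 20.6 and 18.0 FPKM in controls. Creeping fat was the lower without overlap, but by little, and the log2 difference of -0.38 ± 0.15 did not pass (adjusted p = 0.147 in limma; 95% interval -0.74 to -0.02). A non-coding gene, Gdap10, overlaps Nampt on the same strand. Without creeping fat 2 the difference was -0.27.

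Itln1, which encodes omentin and lies on chromosome 1 from 171518123 to 171535325, had at most 22 reads in a library. Its values of 0.0461 FPKM in creeping fat 1, 0.119 in creeping fat 2 and 0.422 in control 3 correspond to 2, 5 and 22 reads. It was listed at 0 in creeping fat 3, control 1 and control 2, where 3 reads would have given 0.0761, 0.0643 and 0.0802 FPKM. When genes of any level were tested, Itln1 was not called (-0.09 ± 0.15, adjusted p = 0.755 in limma). Summed mesothelial markers were 95.5 FPKM in control 1, 21.2 in control 2 and 86.3 in control 3, and 60.7 to 111 FPKM in creeping fat. Summed intestinal epithelium markers were 151, 119 and 15.6 FPKM in creeping fat and 9.13, 58.4 and 45.9 in controls. Which cells the Itln1 reads came from was not tested.

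Of the receptors, Adipor2 fell, and Adipor1 and Lepr were not called. Adipor2, on chromosome 6 from 119353150 to 119417699, stood at 38.7, 50.6 and 42.8 FPKM in creeping fat and at 166, 102 and 157 FPKM in controls. Every control lay above every creeping fat library, and Adipor2 fell by 1.64 ± 0.23 (adjusted p = 0.00564 in limma). Adipor1, on chromosome 1 from 134415378 to 134433351, stood at 59.5, 52.4 and 62.7 FPKM in creeping fat and at 53.1, 43.5 and 62.1 FPKM in controls. The groups overlapped and Adipor1 did not pass (0.15 ± 0.17, adjusted p = 0.643; 95% interval -0.27 to 0.56), so the interval excludes a fall of the size seen in Adipor2. Adipor2 transcripts were 3.13, 2.34 and 2.52 times those of Adipor1 in controls and 0.650, 0.966 and 0.683 times in creeping fat. Adipor2 was thus the higher receptor transcript in every control, and the lower in creeping fat 1 and 3. In creeping fat 2 the order depended on the gene lengths: with GENCODE exon lengths, tried after the data were seen, the ratio there was 1.03, against 0.694 and 0.73 in creeping fat 1 and 3 and 2.5 to 3.35 in controls. The log2 ratio of Adipor1 to Adipor2 differed by 1.78 between the groups (exact two-sided permutation p = 0.1, n = 3 and 3, the smallest p that this number of libraries allows).

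Lepr, the leptin receptor gene on chromosome 4 from 101717137 to 101815352, stood at 1.52, 1.33 and 2.21 FPKM in creeping fat and at 2.68, 11.9 and 3.00 FPKM in controls. Creeping fat was the lower without overlap, but control 2 alone was 4.2 times the mean of the other controls. The log2 difference of -1.11 ± 0.48 did not pass (adjusted p = 0.17 in limma; 95% interval -2.24 to 0.02), and without control 2 it was -0.53 (adjusted p = 0.0539). The reads behind Lepr imply a gene length of about 11568 bases in the authors' annotation against 7049 bases of GENCODE exons. Its level beside other genes likewise depends on the length used. The long isoform that signals through STAT3 and the shorter isoforms were not told apart.

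**Figure D2:**
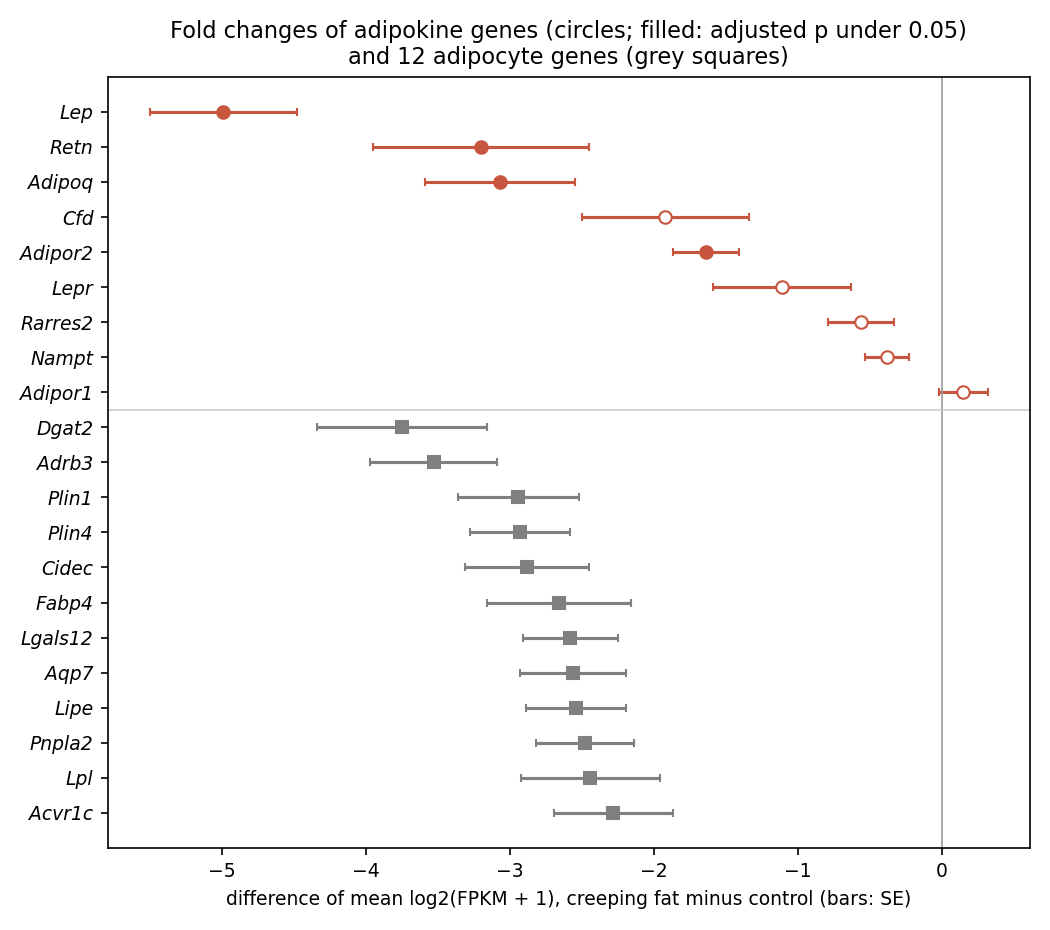
Group difference in mean log2(FPKM + 1) (x axis, control subtracted from creeping fat) with limma's SE, for the 9 tested adipokine and receptor genes (circles, filled where the adjusted p was under 0.05) and 12 adipocyte genes (grey squares). Lep at -4.99 lies below all 12 adipocyte genes, which range from -3.75 to -2.28, Retn and Adipoq lie among them, and the other 6 lie above them.

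Because the adipocyte genes themselves were lower, each adipokine was set against them. The 12 adipocyte genes had a median log2 difference of -2.62, from -3.75 (Dgat2, the last step of triglyceride synthesis) to -2.28 (Acvr1c, an activin receptor). Adipoq and Retn lay within this range, each below 10 of the 12. Lep lay below all 12. Cfd, Adipor2, Lepr, Rarres2, Nampt and Adipor1 lay above all 12. For the values by library, the mean log2 level of 6 adipocyte genes (Plin1, Plin4, Cidec, Lipe, Pnpla2 and Fabp4) was subtracted from that of each gene.

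Relative to the 6 genes, Lep stood at -4.66, -4.88 and -4.47 in creeping fat and at -2.94, -2.61 and -1.70 in controls. The groups did not overlap, and the difference was -2.25, from -2.51 to -1.90 with 1 library left out. So Lep transcripts were lower in creeping fat also per adipocyte transcript, and also in creeping fat 2 against control 2, the pair of libraries nearest to each other across the groups in summed adipocyte genes. Adipoq, by contrast, stood at 0.54, 0.53 and 0.34 in creeping fat and at 1.17, 0.35 and 0.90 in controls, with overlap and a difference of -0.34. Retn overlapped too, with a difference of -0.46. Cfd was higher relative to the 6 genes by 0.82, with overlap, at 3.12, 3.59 and 3.06 in creeping fat and at 3.08, 2.10 and 2.13 in controls. Adipor1, Nampt, Rarres2 and Adipor2 were higher relative to these genes in every creeping fat library than in any control, by 2.89, 2.36, 2.18 and 1.10. The 6 genes themselves had a mean log2 difference of -2.74, so a gene that did not change would also be higher relative to them. The share of all genes tested that were placed in this way is not given here, and the 4 values are no trait of these genes alone. Lepr, at 1.63, overlapped. The exact two-sided permutation p was 0.1, the smallest possible with n = 3 and 3, for Lep, Adipor1, Adipor2, Rarres2 and Nampt, 0.2 for Cfd, 0.3 for Adipoq and Lepr, and 0.5 for Retn. Adjusted for the number of genes compared, none of these can pass.

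**Figure D3:**
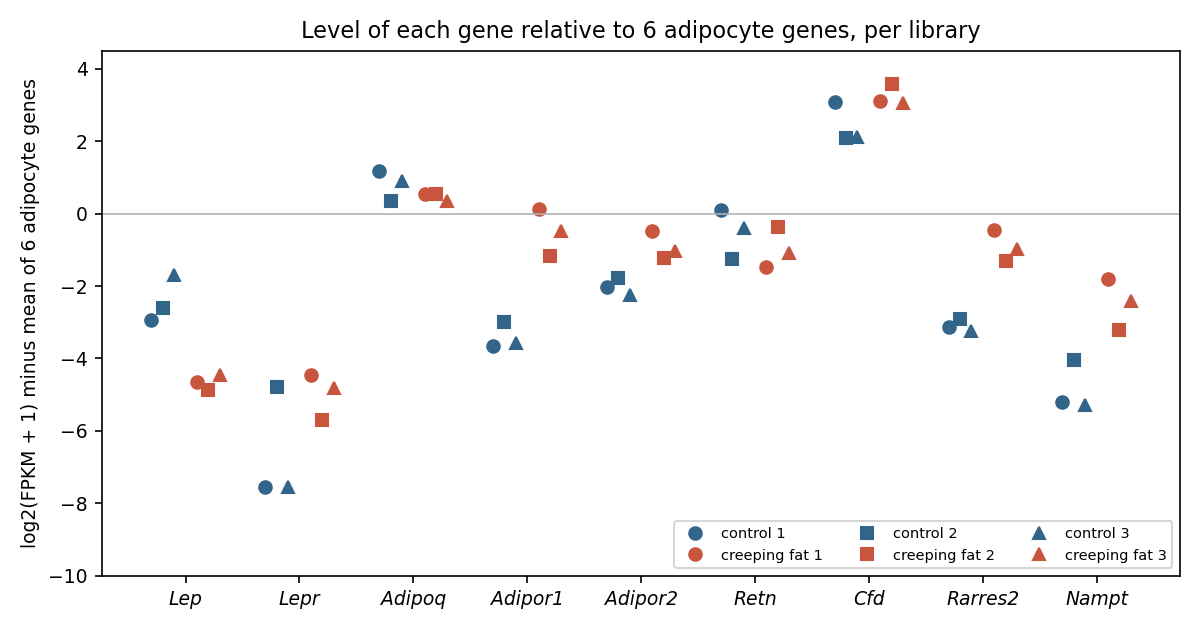
Level of each of the 9 tested genes relative to adipocyte genes (y axis: log2(FPKM + 1) minus the mean of 6 adipocyte genes) in each control (blue) and creeping fat (red) library. Lep is lower in every creeping fat library than in any control, and Adipoq and Retn overlap. Adipor1, Adipor2, Rarres2 and Nampt are higher in every creeping fat library, where the 6 reference genes themselves were lower.

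The balance of leptin to adiponectin transcripts shows the same without any reference list. Lep was 1.5%, 1.79% and 2.72% of the Adipoq level in creeping fat and 5.76%, 12.7% and 16.4% in controls. Each creeping fat library was below each control, with a mean log2 ratio of -5.14 ± 0.31 against -3.22 ± 0.78 (SD, n = 3; exact two-sided permutation p = 0.1). Against Plin1, Lep was 3.99%, 3.79% and 5.43% in creeping fat and 16.9%, 22.0% and 46.2% in controls. Cfd moved the other way against Adipoq, higher by 1.16 without overlap (p = 0.1 in the same exact test), and Retn kept a ratio to Adipoq that overlapped (-0.12, exact p = 0.8).

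Genes with the pattern most like that of a member across the 6 libraries were taken from the 8427 genes whose mean reached 5 FPKM, by Pearson's r of log2 levels. The libraries share the difference between groups, so r is a description only. Nearest to Lep were Angptl4 (r = 0.9985), an inhibitor of lipoprotein lipase, Tenm4 (0.9980) and Hipk2 (0.9973), a protein kinase. In all of these control 3 was the highest library, as in Lep. Nearest to Adipoq were Gstz1 (0.9999), Klb (0.9997), the co-receptor of FGF21, and Tshr (0.9995), the thyrotropin receptor, in which control 1 was the highest and control 2 the lowest control. Nearest to Cfd were Asns (0.9976), asparagine synthetase, Cycs (0.9975), cytochrome c, and Cox6a1 (0.9965), a subunit of cytochrome c oxidase. Nearest to Nampt were Mob2 (0.9921), 1700029I15Rik (0.9905) and Zmynd11 (0.9865), in which control 2 was the highest library. Among the members, Adipor2 was the nearest to Adipoq (0.9939, rank 48 of the genes compared) and Retn the nearest to Cfd (0.9862, rank 24).

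Transcription factors that act on adipokine genes were mostly lower. Of 10 tested, 6 were called lower and 1 higher, with a median of -0.88, against 16.2% of all genes tested called in either direction. Pparg, the master regulator of adipocytes and an activator of Adipoq, fell by 1.78 ± 0.41 (7.19 ± 2.1 against 29.2 ± 14.2 FPKM, adjusted p = 0.0294 in limma). Cebpa, an activator of the leptin and adiponectin genes, fell by 1.69 ± 0.28 (71.9 ± 14.6 against 238 ± 69 FPKM, adjusted p = 0.00991). Srebf1, a regulator of lipid synthesis, fell by 1.53 ± 0.30 (adjusted p = 0.0171). Hif1a, the hypoxia-inducible factor, rose by 1.53 ± 0.23 (51.4 ± 14.4 against 16.7 ± 1.36 FPKM, adjusted p = 0.00709). Cebpb, the most abundant of those not called, was at 0.42 ± 0.16 (adjusted p = 0.13). Cebpa, Hif1a and Klf15 were called with each library left out. Pparg was not called with any library other than control 2 left out or when genes of any level were tested, Srebf1 was lost without creeping fat 1, 2 or 3 or control 3, and the count of lower genes was 3 without creeping fat 1 or 2 and 2 without control 3.

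The promoters of the 3 hormone genes that fell are shown because they fell together with these factors. Each is the 250 bases before the RefSeq start site, 5′ to 3′ on the gene's strand, with capitals for matches to the motifs searched.
Lep (chr6:29059971-29060220, plus strand): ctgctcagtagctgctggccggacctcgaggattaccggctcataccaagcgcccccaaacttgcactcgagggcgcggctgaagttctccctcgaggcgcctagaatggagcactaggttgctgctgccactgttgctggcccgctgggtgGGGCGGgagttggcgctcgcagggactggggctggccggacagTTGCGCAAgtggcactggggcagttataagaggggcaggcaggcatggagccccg
Adipoq (chr16:23146286-23146535, plus strand): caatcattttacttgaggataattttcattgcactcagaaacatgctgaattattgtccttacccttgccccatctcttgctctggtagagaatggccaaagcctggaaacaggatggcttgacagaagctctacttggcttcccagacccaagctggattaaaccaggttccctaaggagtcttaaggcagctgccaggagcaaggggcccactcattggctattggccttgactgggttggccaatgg
Retn (chr8:3655520-3655769, plus strand): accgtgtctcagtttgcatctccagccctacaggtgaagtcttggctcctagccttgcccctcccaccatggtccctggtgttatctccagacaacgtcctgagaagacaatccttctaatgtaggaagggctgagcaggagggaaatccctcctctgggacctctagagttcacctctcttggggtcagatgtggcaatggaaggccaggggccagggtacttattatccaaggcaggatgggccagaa
The motifs were TTGCNNAA for C/EBP factors, the direct repeat bound by PPAR with RXR, TATAAA and GGGCGG for Sp1, on both strands. In Lep, the C/EBP letters read the same on both strands and begin at position -55 from the start, and the Sp1 letters at -98. Among 32851 RefSeq promoter windows of 300 bases, which run 50 bases past the start, 10.8% held the C/EBP letters, 0.381% the PPAR repeat, 13.6% TATAAA and 35.7% GGGCGG. In the windows of Adipoq and Retn none of these motifs was found. Of the other members, Lepr also held the C/EBP letters, and Lepr, Adipor1 and Nampt the Sp1 letters, though these genes were not called. Matches thus did not set apart the genes that fell. A match or its lack is a description of the letters, and no binding was measured. GC content of the 250 bases was 65.6% in Lep, 48.8% in Adipoq and 54.8% in Retn.

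Of 15 leptin signalling genes tested 2 were higher and 0 lower, with a median of 0.16, a share of calls near the 16.2% of all genes tested. Socs3, the feedback inhibitor of the leptin receptor and of other cytokine receptors, rose by 1.55 ± 0.27 (52.0, 42.5 and 27.7 FPKM in creeping fat against 9.78, 14.8 and 14.4 in controls; adjusted p = 0.0113 in limma). It was called with each library left out. Leprot, which shares the start of the Lepr locus and controls receptor transport to the cell surface, rose by 0.62 ± 0.17 (47.9 ± 2.49 against 31.2 ± 5.37 FPKM, adjusted p = 0.0497). This call was lost with any library other than control 2 left out, and with pseudocounts of 0.1 and 0.5, both rescalings, no trend, genes of any level, or voom. Stat3, the most abundant of those not called, was at 0.40 ± 0.18 (adjusted p = 0.179). Without control 2, 5 genes were higher and 3 lower.

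Adiponectin assembly, binding and signalling held 1 called gene of 13 (all genes tested: 16.2%), with a median of -0.04. Ppara, the nuclear receptor of fatty acid oxidation, fell by 0.96 ± 0.18 (0.715 ± 0.299 against 2.3 ± 0.147 FPKM, adjusted p = 0.0135 in limma). It was near the filter of 1 FPKM, and its call was lost without creeping fat 1, creeping fat 3 or control 3. Stk11, the kinase LKB1 that activates AMPK and the most abundant of those not called, was at -0.24 ± 0.14 (adjusted p = 0.324). Without control 2, 2 genes of the list were higher and 3 lower.

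The relatives of adiponectin and of its receptors went both ways. The 7 tested C1q/TNF genes encode secreted proteins with the same globular domain as adiponectin. Of these, 4 were higher and 1 lower (all genes tested: 9.35% and 6.81%), with a median of 1.24. C1qtnf6 rose by 2.62 ± 0.35 (55.5 ± 16.5 against 8.4 ± 3.56 FPKM, adjusted p = 0.00504 in limma), and C1qtnf7 by 1.80 ± 0.22 (12.1 ± 3.08 against 2.73 ± 0.632 FPKM, adjusted p = 0.00386). C1qtnf3, at 41.7, 14.6 and 9.89 FPKM in creeping fat and 3.29, 0.736 and 2.00 in controls, rose by 2.78 ± 0.55 (adjusted p = 0.0173), a call lost without control 3. C1qtnf12, at 11.2, 13.3 and 10.9 FPKM against 38.5, 20.9 and 33.8, fell by 1.29 ± 0.24 (adjusted p = 0.0141), a call lost without creeping fat 1, creeping fat 3 or control 3. C1qtnf1, the most abundant of those not called, was at 0.76 ± 0.22 (adjusted p = 0.0645). C1qtnf6, C1qtnf7 and C1qtnf2 were called with each library left out.

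Of 7 PAQR genes, the family of the adiponectin receptors, Paqr9 fell and Paqr5 rose, against 16.2% of all genes tested called. The list median was -0.40. Paqr9 stood at 0.464 ± 0.19 FPKM in creeping fat against 15.4 ± 4.04 in controls, a fall of 3.46 ± 0.21 (adjusted p = 0.00043 in limma) that was called with each library left out. Paqr5, a membrane progestin receptor, rose by 0.79 ± 0.19 (1.52 ± 0.357 against 0.457 ± 0.176 FPKM, adjusted p = 0.0317), and this call was lost with any library other than control 2 left out. Paqr4, the most abundant of those not called, was at -0.63 ± 0.20 (adjusted p = 0.077).

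**Figure D4:**
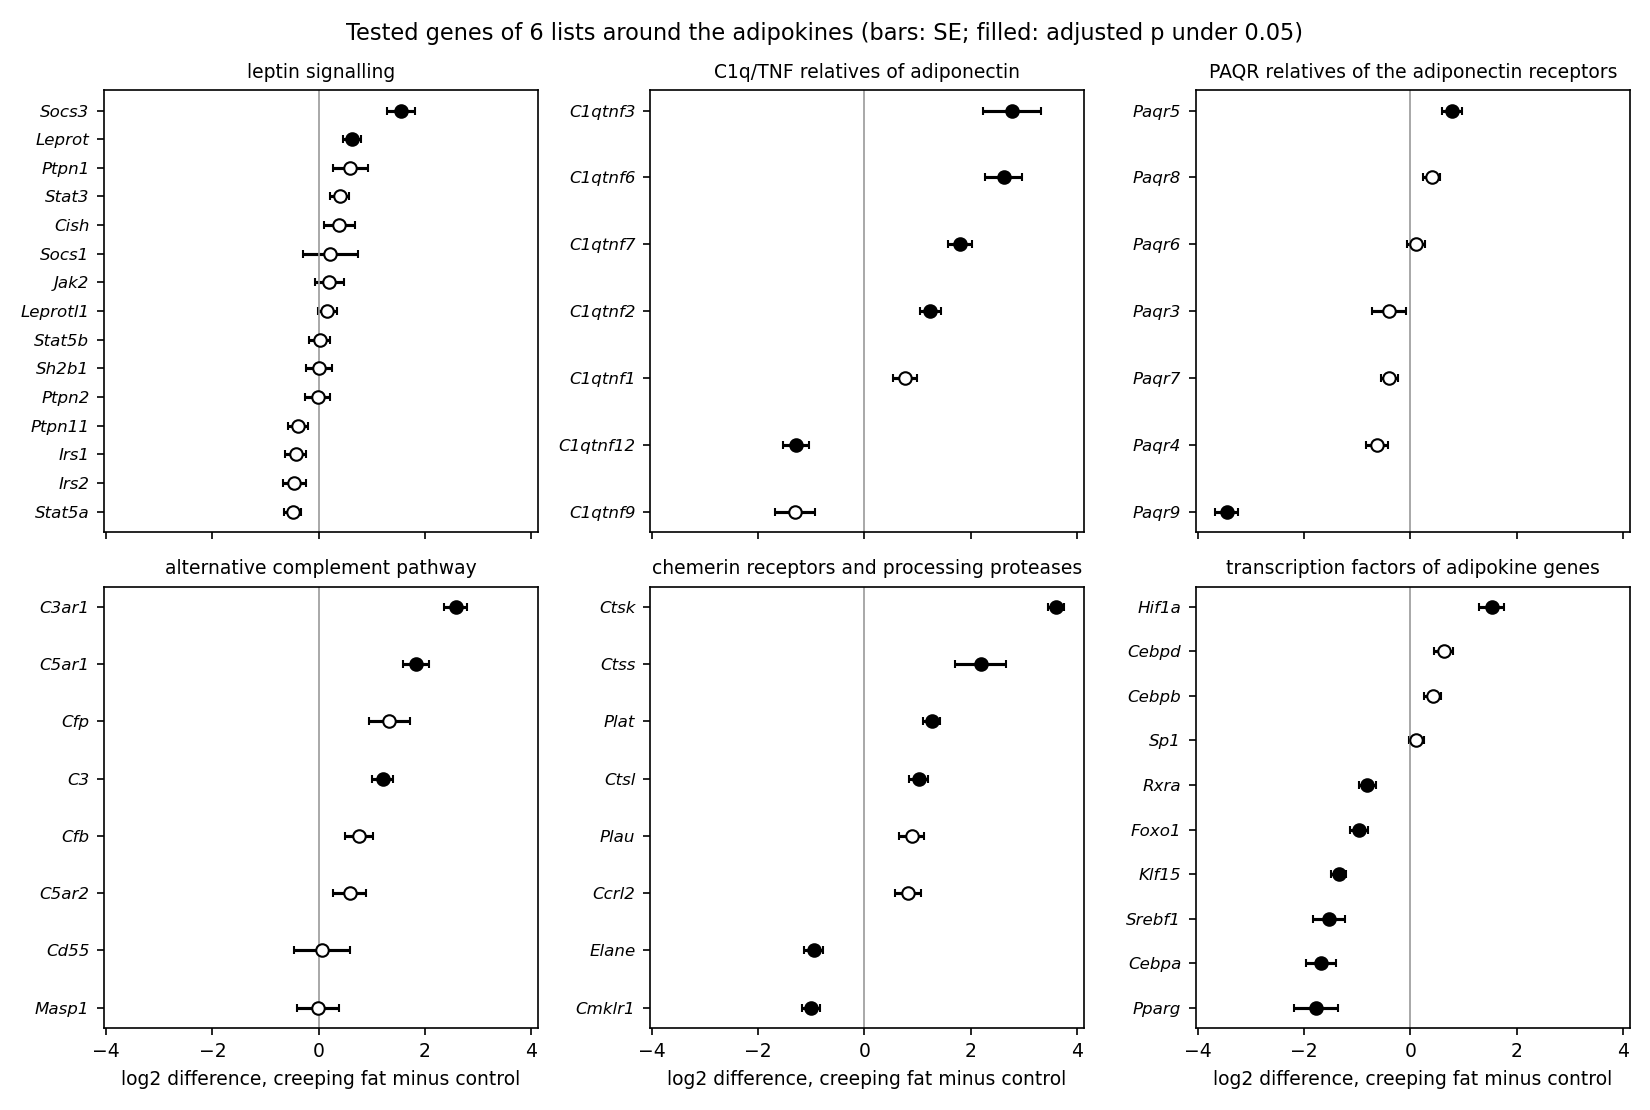
Group difference in mean log2(FPKM + 1) (x axis, control subtracted from creeping fat) with limma's SE, for the tested genes of 6 lists around the adipokines; filled points had an adjusted p under 0.05. The list medians run from -0.88 for the transcription factors to 1.24 for the C1q/TNF genes, and Paqr9 at -3.46 and Ctsk at 3.61 lie farthest from 0.

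Around adipsin, 3 of 8 tested genes of the alternative complement pathway were higher and 0 lower (all genes tested: 9.35% and 6.81%). The list median was 0.98. C3ar1, the receptor of C3a, rose by 2.58 ± 0.22 (adjusted p = 0.00135 in limma), and C5ar1, the receptor of C5a, by 1.83 ± 0.24 (37.5 ± 2.69 against 10.2 ± 3.48 FPKM, adjusted p = 0.00517). Both were called with each library left out. C3, the central component, stood at 1647, 1369 and 1241 FPKM in creeping fat and at 612, 651 and 565 in controls, and rose by 1.21 ± 0.20 (adjusted p = 0.00943), a call lost without creeping fat 1 or with genes of any level tested. Cfb, the substrate of adipsin, was not called (0.76 ± 0.26; 125, 112 and 92.1 FPKM against 44.9, 87.8 and 66.4; adjusted p = 0.102). The count of higher genes was 6 without control 2.

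Around chemerin, 4 of 8 tested genes were higher and 2 lower (all genes tested: 9.35% and 6.81%), with a median of 0.95. Of the 6 proteases among them 4 rose, 1 fell and 1 was not called, and of the receptors Cmklr1 fell and Ccrl2, which binds chemerin without signalling, was not called (0.82 ± 0.24, adjusted p = 0.0636 in limma). Gpr1, also listed as a chemerin receptor, was under the filter (0.207 ± 0.0735 against 0.343 ± 0.184 FPKM). Cmklr1, a signalling receptor of chemerin, stood at 31.2, 24.7 and 30.7 FPKM in creeping fat and at 65.4, 49.8 and 62.5 in controls. It fell by 1.01 ± 0.17 (adjusted p = 0.0105 in limma), a call lost without control 3. Ctsk, which encodes cathepsin K, rose by 3.61 ± 0.15 (84 ± 9.82 against 5.94 ± 0.66 FPKM, adjusted p = 9.72e-05), and Plat, tissue plasminogen activator, by 1.27 ± 0.16 (adjusted p = 0.00433), both called with each library left out. Ctss, cathepsin S, rose by 2.19 ± 0.48 (adjusted p = 0.0248) and Ctsl, cathepsin L, by 1.02 ± 0.18 (adjusted p = 0.0125). Ctss was lost without creeping fat 1 or 3 or control 1 or 3 or with genes of any level tested, and Ctsl without creeping fat 1 or 3. Elane, neutrophil elastase, fell by 0.96 ± 0.17, near the filter (0.297 ± 0.187 against 1.51 ± 0.121 FPKM, adjusted p = 0.0122), a call lost without creeping fat 1 or control 3. Plau, urokinase, was not called (0.89 ± 0.24, adjusted p = 0.0514). The proteases have many substrates, and cathepsins are abundant in macrophages, whose markers moved with the groups.

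Of 4 tested genes of the resistin family and its receptors, limma called none at an adjusted p under 0.05 (all genes tested: 16.2%). Retnla, a relative of resistin made by macrophages and adipose tissue, stood at 9.10, 59.4 and 61.4 FPKM in creeping fat and at 207, 51.0 and 356 in controls, with overlap at control 2 (-2.22 ± 0.92, adjusted p = 0.159). Without control 2, at -3.02, it was called, and 2 genes of the list were higher. Around Nampt, 1 of 14 genes of NAD synthesis and use was called (all genes tested: 16.2%), with a median of -0.05. Bst1, an NAD-consuming surface enzyme, rose by 1.75 ± 0.29 (12.5 ± 3.66 against 3.08 ± 1.38 FPKM, adjusted p = 0.0105), a call lost without control 3. Nadk, NAD kinase and the most abundant of those not called, was at -0.50 ± 0.14 (adjusted p = 0.0552).

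Of 17 further secreted factors of fat, 6 were lower and 3 higher (all genes tested: 6.81% and 9.35%), with a median of 0.13. Rbp4, the retinol carrier of plasma, fell by 3.22 ± 0.59 (10.8, 33.1 and 20.8 FPKM in creeping fat against 315, 81.5 and 271 in controls; adjusted p = 0.0137 in limma), a call lost without creeping fat 1, creeping fat 3 or control 3. Sfrp5, a secreted Wnt inhibitor, fell by 2.74 ± 0.29 (2.62 ± 0.532 against 24.2 ± 10.2 FPKM, adjusted p = 0.00258), and Nrg4, a ligand of ErbB4, by 2.06 ± 0.23 (1.96 ± 0.267 against 11.7 ± 3.5 FPKM, adjusted p = 0.00324). Both were called with each library left out. Agt, angiotensinogen, fell by 2.27 ± 0.46 (adjusted p = 0.0187), a call lost without creeping fat 1 or 3 or control 1 or 3. The 3 that were higher were Nucb2, Metrnl and Igf1, at 1.85, 1.41 and 1.00, and Igf1 was lost without creeping fat 1, 2 or 3 or with median ratio scaling. Lcn2, lipocalin 2, was the most abundant of those not called (-0.20 ± 1.19, adjusted p = 0.937) and ranged from 9.13 FPKM in control 2 to 202 in control 3. It stood at 0.58 without control 3 and at -1.58 without control 2. The count of lower genes was 3 without creeping fat 1 or 3 or control 3. Over the 10 lists around the adipokines, of 4 to 17 tested genes each, 36 genes were called. Of these, 17 were called with each library left out in turn. Over all genes tested, 16.2% were called, and how many of those kept the call with each library left out is not given here.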

How the data were processed

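Group and replicate were read from the sample titles. Per the labels' protocols, total RNA was isolated with a mirVana kit and made into stranded libraries after ribosomal RNA removal. The authors deposited FPKM values for 22134 gene symbols in 6 libraries, on build mm10 per the submitters' processing notes. Aligner, counting program, annotation and strand setting are not given in the sources used here. FPKM are relative to the library total, so abundant transcripts of 1 library lower all its other values.

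The deposited FPKM were transformed to log2(FPKM + 1) and fitted in limma 3.58.1 (R 4.3.3) with the group as the only term, eBayes with trend, two-sided, over the 12812 genes that reached 1 FPKM in 3 or more libraries. The added 1 makes fold changes of low genes too small. On simulated counts, 89.8% of genes changed by 1 on the log2 scale and 100% of those changed by 2 were recovered among 12703 genes. The simulation gave every gene the same small spread and no library that stood apart from its group. These shares therefore do not apply to genes as variable as Retn or Cfd. With 3 libraries against 3, an exact permutation test cannot give a p under 0.1.

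Within a gene, FPKM of different libraries are whole multiples of 1 read. Solving for these gave whole reads, within 0.002 reads, in each of the 17147 genes detected in 4 or more libraries. The recovered reads summed to 35882066, 34671926 and 32582881 in creeping fat and for the control libraries to 38577203, 30935272 and 43073133. In a gene of 1 kilobase 3 reads would give 0.0696 to 0.097 FPKM, a floor for counting error alone. Itln1 was solved from 3 libraries.

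The members and the lists were chosen with earlier results of these data known. Named from each list were its called genes, or the 4 with the largest change where more were called, and the most abundant gene not called. A few further genes (C1qtnf2, Klf15, Cmklr1, Ccrl2, Gpr1, Elane, Nucb2, Metrnl and Igf1) were named after their values were seen. The list gene C5 was matched as Hc, and 1 further gene of the complement list is not reported here. Sequences and positions are from RefSeq (GRCm38.p6), and gene overlaps and exon lengths from GENCODE. Other settings tried were pseudocounts of 0.1 and 0.5, other filters and scalings, no trend, voom on the recovered reads, the replicate number as a block, and each library left out.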

Additional observations from a re-analysis of the deposited data

How the results depend on the processing

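Lep, Adipoq and Adipor2 were called lower in each of the 18 other settings, and Adipor1 and Nampt in none, nor was Lepr in the 17 settings that tested it. No adipokine gene changed direction in any setting run. Retn was at -3.20 and not called when genes of any level were tested (adjusted p = 0.0601 in limma) or with the replicate block (0.0892), and ranged from -3.90 to -2.64 with 1 library left out. Cfd and Rarres2, at -2.42 to -1.46 and -0.80 to -0.43 with 1 library left out, were called without control 2. They were also called with both number-2 libraries left out together (-2.85 and -0.86, adjusted p = 0.000865 and 0.00465 in limma), but not without creeping fat 2 alone (0.0651 and 0.256). The cause was not tested. With 1 library left out, 3 to 6 of the 10 were called lower, and over all genes 576 to 2896 were higher and 287 to 1857 lower. The largest of these counts all came without control 2. With both number-2 libraries left out, 2713 genes were higher and 1731 lower. Nothing in the labels says that replicate numbers pair the libraries. Deviations from the group means of same-numbered libraries correlated at -0.181, -0.18 and -0.081, and no library correlated best with its own number. With 3 libraries a group, these values cannot settle whether the numbers pair. The replicate block, which leaves fewer degrees of freedom, gave 636 genes higher and 378 lower, against 1198 and 872. Calls of list genes lost with this block are not among the losses named above. With it, the adiponectin signalling and C1q/TNF lists held 0 lower genes and the PAQR list 0 higher. Of the transcription factors 4 were lower, while 4 C1q/TNF and 3 complement genes stayed higher. By voom on the recovered reads Lep stood at -5.54. The differences relative to adipocyte genes kept their direction in each of the 9 tested genes with Plin1 alone as the reference, with 12 genes, with a pseudocount of 0.1 and with each library left out. Of the 10 genes, depth limits Itln1, with 22 reads at most.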

Other observations

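Within the controls, control 2 differed from the other controls gene by gene. Relative to the mean of control 1 and 3, it stood at 0.227 for Retn, 0.308 for Adipoq, 0.338 for Cfd, 0.362 for Lep, 0.597 for Rarres2, 0.630 for Adipor2 and 0.755 for Adipor1, but at 1.15 for Nampt and 4.2 for Lepr. Its summed B and T lymphocyte markers were 356 FPKM, against 91.3 and 114 in control 1 and 3. Its 12 adipocyte genes summed to 3953 FPKM against 10003 and 10442. Within creeping fat, creeping fat 2 stood at 3.06 times the mean of creeping fat 1 and 3 for Retn, 2.36 for Cfd, 1.81 for Adipoq, 1.47 for Lep, 1.24 for Adipor2 and 1.13 for Rarres2, and at 0.857 for Adipor1, 0.786 for Nampt and 0.716 for Lepr. In both libraries Retn and Cfd were thus displaced far more than Rarres2 and Adipor1, and Lepr and Nampt lay on the other side of their group. The part of other cells in these differences was not tested.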
